A study of Homo sapiens with 11 samples.

Results

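In U2OS, a human osteosarcoma cell line, 11145 regions of the genome carried CUL4A and CDT2 and lay on a replication origin. They are the CUL4A-enriched regions (islands) of chromosomes 1 to 22 that share at least 1 bp with a CDT2 peak and at least 1 bp with an origin, and they make up 20% of the 55717 CUL4A islands on those chromosomes (Wilson 95% confidence interval 19.7 to 20.3%). They are called CDT2-origin islands here. They were selected on the measured CUL4A, CDT2 and U2OS origin lists, whose presence is therefore no result, so the results rest on 5 lists that took no part in the selection.

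CRL4 ubiquitin ligases are built on the scaffold protein CUL4A or its relative CUL4B, and receptors called DCAFs, among them CDT2, direct them to their targets. CRL4-CDT2 recognises proteins such as CDT1, SET8 and p21 while they are bound to PCNA on replicating DNA. Removal of CDT1, an origin licensing factor, keeps an origin from being licensed again in the same S phase. SKP2, the receptor of a different ubiquitin ligase (SCF), also directs CDT1 to degradation. RepID is a further CRL4 receptor, which binds a subset of origins. H3K9me3 is a histone mark of silent, mostly late-replicating chromatin, and H3K4me3 marks active promoters and early-replicating chromatin.

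Of the 11 samples in the series, 8 have a list of regions, with 1 sample per list, and 3 are inputs. CUL4A, H3K4me3 and H3K9me3 were measured by ChIP-Seq in untreated, unsynchronized U2OS cells with wild-type RepID, and origins by sequencing short nascent DNA strands from U2OS WT cells. For CDT2, the description of the series names U2OS cells that overexpress full-length FLAG-RepID, whereas the text of the study names U2OS WT cells. The CDT2 list is labelled U_FL, and the only input titled U2OS is from FLAG-RepID FL stable cells, both matching the series description. That input, however, carries the cell line value HCT116, and no list is tied to it. These islands may therefore combine measurements from lines that differ in RepID. SKP2 was measured in HCT116, a human colon carcinoma line, as HCT116 WT and as HCT116 RepID KO. HCT116 RepID KO cells, in which nascent strands were also sequenced, carry a CRISPR-Cas9 disruption of RepID and are described as a clone. Origins of the HCT116 WT line were not used, so the HCT116 RepID KO origins show where an origin was also called in another line and say nothing about the loss of RepID. In the same way, HCT116 SKP2 was measured in another line than CUL4A and CDT2. The coordinates are those of hg19, the build named in the submitters' processing notes. No gene or sequence was assigned to an island.

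The remaining CUL4A islands served for comparison. They comprised 27727 islands on an origin without CDT2, 3300 islands with CDT2 outside origins, and 13545 islands with neither. With 1 sample per list there is no spread between replicates, so no test between conditions was made. The intervals below cover counting error only and treat neighbouring islands as independent. Depth is unknown, because the lists give no library totals.

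The CDT2-origin islands had the highest median width and CUL4A score of the 4 kinds of island. These values come from a list used in the selection and only describe the set. Their width ranged from 200 to 51800 bp with a median of 2600 bp, against 2400 bp for islands on origins without CDT2, 1400 bp for islands with CDT2 outside origins and 1400 bp for those with neither. Their median CUL4A score, a whole number that comes with the list, was 107, against 73.0, 48.0 and 39.0 in the same order. Per kb of island the median score was 42.0, against 33.3 for islands on origins without CDT2, 40 for islands with CDT2 outside origins and 31.0 for those with neither, so per kb the islands with CDT2 in and outside origins were close, with upper quartiles of 62.8 and 63.3. A wide island has more chances to meet any list, so the main shares below are also given within classes of island width. The CDT2-origin islands covered 26.6% of the length of all islands and held 32.4% of their summed score, and among the 2422 islands over 8 kb they numbered 993 (41.0%).

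H3K9me3 was the mark that set the CDT2-origin islands apart from other islands on origins. It was found in 6900 of them, or 61.9% (61.0 to 62.8%), against a background of 33.2% over all CUL4A islands. Islands on origins without CDT2 had it in 25.5%, islands with CDT2 outside origins in 50.8% (49.1 to 52.5%) and islands with neither in 21.1%. The difference from islands on origins without CDT2 was 36.4 percentage points (35.3 to 37.4), and that from islands with CDT2 outside origins was 11.1 points (9.16 to 13.0). The mark thus went with CDT2 more than with the origin in these lists.

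**Figure D1:**
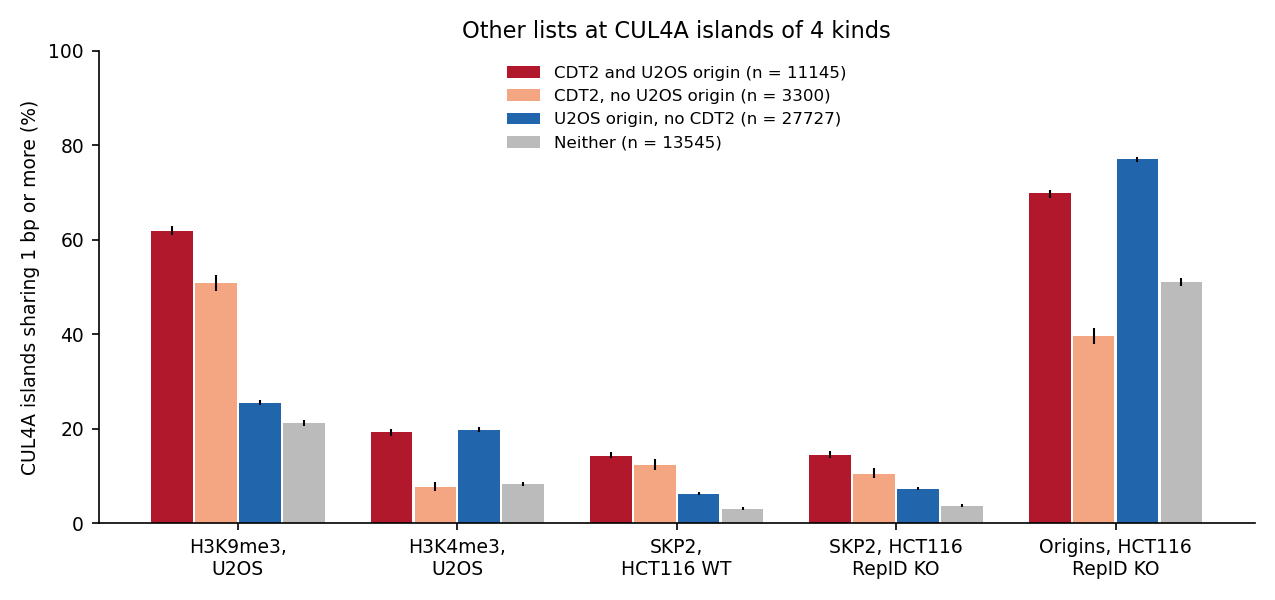
Percentage of CUL4A islands (y axis) that share at least 1 bp with each of 5 lists (x axis), for 4 kinds of island, with bars from 0 and Wilson 95% intervals as error bars. H3K9me3 and both SKP2 lists are more frequent at islands with CDT2 (red and orange) than at those on origins without CDT2 (blue), whereas H3K4me3 (19.3 and 19.8%) is alike in red and blue, and HCT116 RepID KO origins are highest in blue.

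The excess of H3K9me3 over other origin islands was seen at every island width and on every chromosome. Among islands of up to 1 kb, 55.9% of the CDT2-origin islands and 22.1% of the origin islands without CDT2 had the mark, and among islands over 8 kb the values were 73.5 and 40.5%. Over the 5 width classes the difference lay between 33.0 and 36.9 points, with every interval above 0. Against islands with CDT2 outside origins, the difference was smaller, 3.14 points at the least, and its interval lay above 0 in 2 of 5 width classes. When all CUL4A islands were split into 5 equal groups by score per kb, the CDT2-origin islands had H3K9me3 in 53.4% of the lowest group and 66.4% of the highest, whereas origin islands without CDT2 had it in 23.1 and 27.8%. The gap was seen in all 5 groups.

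**Figure D2:**
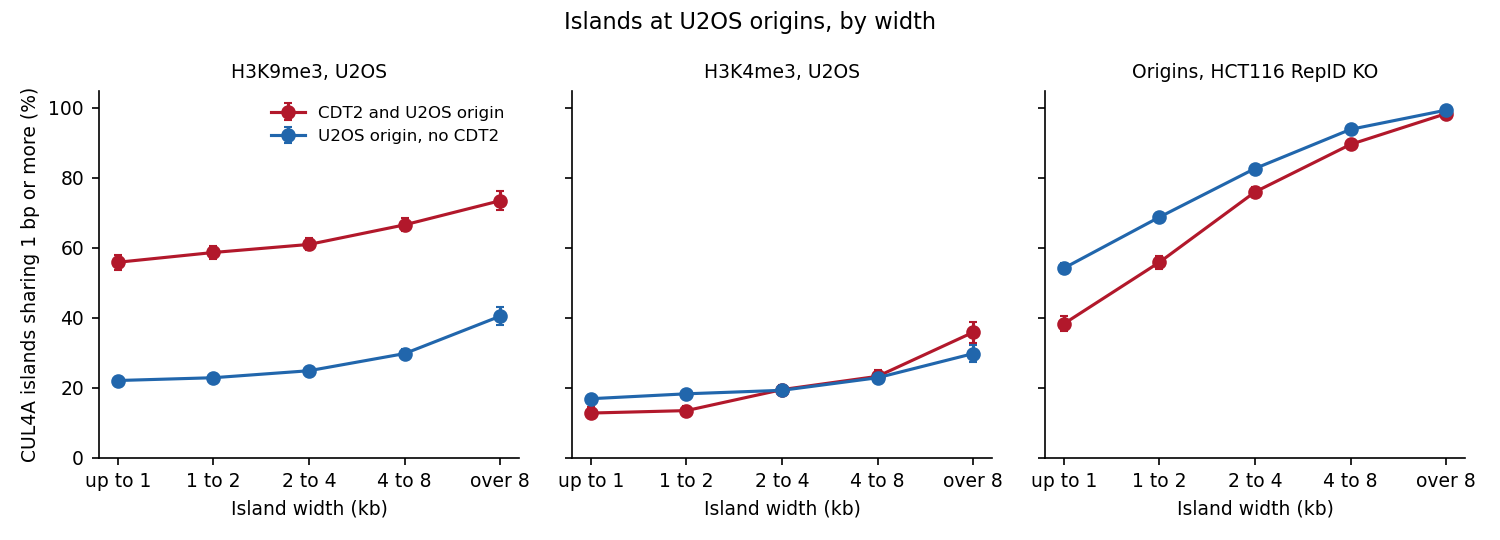
Percentage of CUL4A islands on U2OS origins (y axis) that share at least 1 bp with H3K9me3, H3K4me3 or HCT116 RepID KO origins, by island width in kb (x axis), with CDT2 (red) and without (blue), error bars being Wilson 95% intervals. H3K9me3 is higher with CDT2 at all 5 widths, H3K4me3 changes order between narrow and wide islands, and HCT116 RepID KO origins are lower with CDT2 at all 5 widths.

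The H3K9me3 peaks in the CDT2-origin islands had the highest median width of all kinds. A peak that touched islands of several kinds was counted once, in the CDT2-origin islands if it touched one. This rule may move wide peaks into that kind, and its part in the widths was not tested. They numbered 7849, or 14.0% of all H3K9me3 peaks on these chromosomes, with a median width of 434 bp and a median fold enrichment over control of 4.32 as given by the authors. H3K9me3 peaks in islands with CDT2 outside origins were 372 bp wide at the median with a higher fold of 4.50, those in origin islands without CDT2 347 bp and 3.86, and those outside CUL4A islands had a median width of 298 bp. The median −log10 q was 3.71 in CDT2-origin islands, 3.48 with CDT2 outside origins, 2.67 on origins without CDT2 and 2.33 outside CUL4A islands. A −log10 q of at least 2 was reached by 83.0% of the H3K9me3 peaks in CDT2-origin islands and 81.7% with CDT2 outside origins, against 70.0% in origin islands without CDT2.

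H3K4me3 was found in 2147 of the CDT2-origin islands, or 19.3% (18.5 to 20%), with a background of 16.2% over all CUL4A islands. Origin islands without CDT2 had it in 19.8%, so the shares differed by −0.514 points (−1.38 to 0.362). Islands with CDT2 outside origins had it in 7.76%, which was 11.5 points less (10.3 to 12.6). With only CDT2 peaks of score 50 or more in the selection, so that islands with weaker CDT2 joined the comparison, the difference from other origin islands was 9.52 points (7.76 to 11.3). Narrow and wide islands differed in direction. Among islands of up to 1 kb, H3K4me3 was found in 12.8% of the CDT2-origin islands (11.4 to 14.4%) and in 16.9% of the origin islands without CDT2 (15.9 to 18.0%). Among islands over 8 kb the values were 35.9% (32.9 to 38.9%) and 29.8% (27.4 to 32.2%).

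The H3K4me3 peaks themselves were of another form where CDT2 was present. The 2393 H3K4me3 peaks that touch a CDT2-origin island had a median width of 1195 bp, with 25% at or below 345 bp, and a median fold enrichment of 5.81. The 5478 peaks that touch an origin island without CDT2 had a median width of 2912 bp, with 25% at or below 1153 bp, and a median fold of 9.09. A peak that touches islands of both kinds counts in each. Of the H3K4me3 peaks in CDT2-origin islands, 1864 (77.9%) lay on a CDT2 peak. Those that also shared a base with an H3K9me3 peak numbered 1268, with a median width of 774 bp and a fold of 5.51, and 93.8% of them lay on CDT2. The 1125 others had a median width of 1712 bp, a fold of 6.22, and 675 of them lay on CDT2. In origin islands without CDT2, by contrast, the H3K4me3 peaks with H3K9me3 on them were not the narrower ones, with a median width of 3336 bp against 2827 bp.

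H3K4me3 and H3K9me3 met in the same island more often with CDT2 than in origin islands without CDT2. Of those with H3K4me3, 1429 (66.6%, 64.5 to 68.5%) also had H3K9me3, against 20.9% of the origin islands without CDT2 and 54.3% (48.2 to 60.3%) of the islands with CDT2 outside origins that had H3K4me3. The 66.6% lies near the 61.9% of all CDT2-origin islands that had H3K9me3. By width, it went from 60.2% (54.0 to 66.0%) for islands of up to 1 kb to 76.7% (72.0 to 80.8%) for those over 8 kb, against 12.7% (10.6 to 15.1%) and 40.6% (36.0 to 45.4%) on origins without CDT2. H3K4me3 was more frequent in CDT2-origin islands with H3K9me3 (20.7%, 19.8 to 21.7%) than in those without it (16.9%, 15.8 to 18.1%). Islands with CDT2 outside origins had H3K4me3 in 8.29% with and 7.21% without H3K9me3. Origin islands without CDT2 showed the opposite order, 16.2% (15.4 to 17.1%) with and 21.0% (20.5 to 21.6%) without H3K9me3. In all, 49.1% of the CDT2-origin islands had H3K9me3 alone, 6.44% H3K4me3 alone, 12.8% both marks and 31.6% neither. The corresponding shares of origin islands without CDT2 were 21.4, 15.6, 4.14 and 58.8%. The islands with both marks were also wider (median 3800 bp, against 2600 bp with H3K9me3 alone and 2200 bp with neither).

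SKP2 peaks of HCT116 WT cells were found in 1597 CDT2-origin islands, or 14.3% (13.7 to 15.0%), against a background of 7.45%. SKP2 peaks of HCT116 RepID KO cells were found in 1615, or 14.5% (13.8 to 15.2%), against a background of 8.01%. Origin islands without CDT2 had 6.23 and 7.24%, so the differences were 8.10 points (7.40 to 8.82) for HCT116 WT and 7.25 points (6.54 to 7.98) for HCT116 RepID KO. Both differences were above 0 at all 5 widths, from 4.51 to 11.7 points and from 3.20 to 9.21 points, and on 22 of 22 chromosomes. Compared with islands that had CDT2 outside origins, the pooled differences were 1.91 points (0.573 to 3.17) and 4.01 points (2.74 to 5.21), but at matched width the CDT2-origin islands had the higher share in 1 of 5 classes for HCT116 WT and in 2 of 5 for HCT116 RepID KO. Among islands of 4 to 8 kb, HCT116 WT SKP2 was found in 18.0% of the CDT2-origin islands (16.6 to 19.6%) and in 29.3% of the 208 islands with CDT2 outside origins (23.6 to 35.8%). The excess of SKP2 thus went with CDT2, whether or not an origin was present, but SKP2 also rose with CUL4A score per kb. In the lowest of 5 equal groups by that score, HCT116 WT SKP2 was found in 5.01% of the CDT2-origin islands and 2.66% of the origin islands without CDT2. In the highest group the values were 26.3 and 13.6%. The CDT2-origin islands made up 9.69% of the lowest group and 29.3% of the highest. The part of CUL4A strength in the excess was not tested.

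Most CDT2-origin islands with SKP2 had it in only 1 of the 2 HCT116 lines. A SKP2 peak of both lines was found in 454 (4.07%), of HCT116 WT alone in 1143 (10.3%) and of HCT116 RepID KO alone in 1161 (10.4%). In origin islands without CDT2 the shares were 1.20, 5.03 and 6.04% in the same order. The shared islands were 28.4% of those with HCT116 WT SKP2 (26.3 to 30.7%) and 28.1% of those with HCT116 RepID KO SKP2 (26.0 to 30.4%), against 19.3 and 16.6% in origin islands without CDT2 and 35.6 and 42.2% in islands with CDT2 outside origins. Islands with SKP2 in both lines had stronger CDT2, with a median highest CDT2 score of 66.0, than those with HCT116 WT alone (40.8), HCT116 RepID KO alone (36.2) or neither (30.2). H3K9me3 was found in 72.5, 68.2, 64.8 and 60.1% of them in that order. Their median widths also differed, at 4800, 3400, 3600 and 2400 bp, and the part of width in these values was not tested. With 1 sample per line, a difference between the 2 SKP2 lists cannot be told apart from a difference between samples.

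An origin of HCT116 RepID KO cells was found in 7778 CDT2-origin islands, or 69.8% (68.9 to 70.6%), close to the background of 67.0%. Origin islands without CDT2 had one in 77.0%, a difference of −7.18 points (−8.17 to −6.20) for the CDT2-origin islands. Among islands of up to 1 kb the shares were 38.3% (36.2 to 40.5%) and 54.2% (52.8 to 55.6%), and among islands over 8 kb they were 98.4% (97.4 to 99.0%) and 99.4% (98.9 to 99.7%). The CDT2-origin islands were lower at all 5 widths and on 19 of 22 chromosomes, chromosomes 7, 19 and 22 being the exceptions. The direction changed with the CDT2 threshold: with only CDT2 peaks of score 50 or more in the selection, and weaker ones in the comparison, the CDT2-origin islands were higher by 3.66 points (1.97 to 5.28). That threshold changes both sets of islands, and why the sign changed was not tested. Within the CDT2-origin islands the share also differed by H3K4me3. HCT116 RepID KO cells had an origin at 87.5% of those with H3K4me3 alone and 84.0% of those with both marks, but at 65.6% of those with H3K9me3 alone and 66.9% of those with neither. Among islands of up to 1 kb the values were 63.0% (53.2 to 71.8%), 55.6% (47.7 to 63.3%), 32.8% (29.9 to 35.9%) and 38.5% (35.1 to 42.0%) in the same order, whereas over 8 kb all 4 were at 98.0% or above.

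The CDT2-origin islands differed among themselves by the strength of their CDT2 peak. Ordered by the highest CDT2 score in the island and split into 5 equal groups, they had H3K9me3 in 47.3% of the lowest group (45.3 to 49.4%, scores up to 23.8), then in 55.5, 60.3 and 68.3%, and in 78.1% of the highest (76.3 to 79.7%, scores 55.3 to 3100). Even the lowest group was above the 25.5% of origin islands without CDT2. The other lists rose mainly in the highest group. HCT116 WT SKP2 was found in 9.60, 8.21, 10.1 and 12.7% of the lower 4 groups and in 31.0% of the highest (29.1 to 33.0%), and HCT116 RepID KO SKP2 in 9.60, 9.87, 12.2, 14.1 and 26.7%. H3K4me3 was found in 15.7% of the lowest and 29.5% of the highest group, and HCT116 RepID KO origins in 66.0 to 68.1% of the lower 4 groups and 80.1% of the highest. The CUL4A score per kb went up with them, from a median of 36.0 in the lowest group to 60.8 in the highest, while the median width went from 2600 to 3000 bp. The part of CUL4A strength in these shares was not tested.

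**Figure D3:**
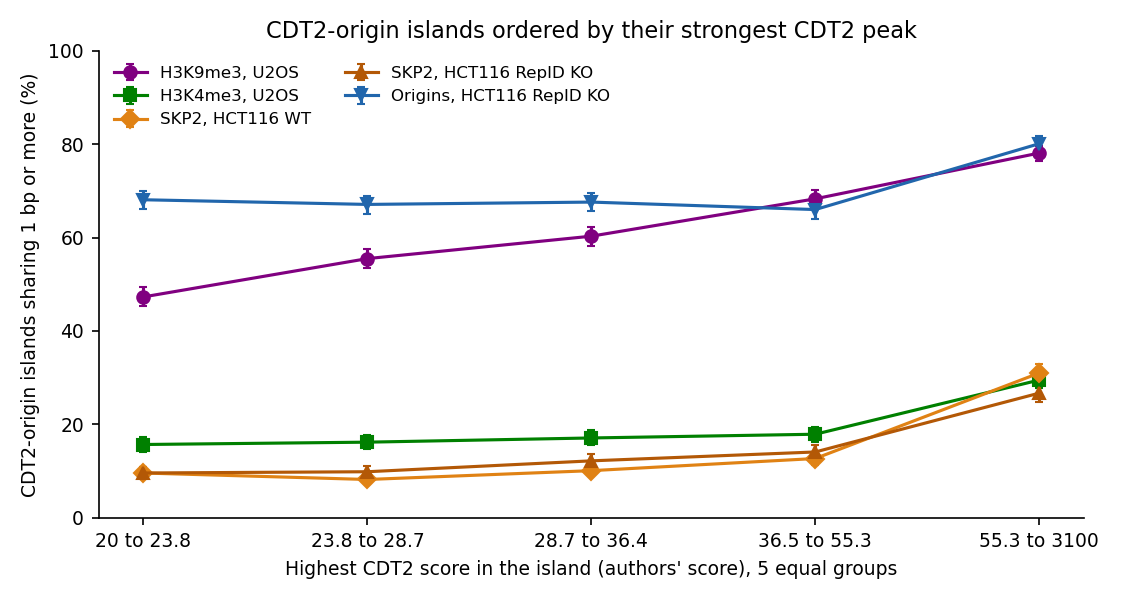
Percentage of CDT2-origin islands (y axis) that share at least 1 bp with each of 5 lists, in 5 equal groups by the highest CDT2 score in the island (x axis, range of the authors' score), with Wilson 95% intervals as error bars. H3K9me3 rises through all groups from 47.3 to 78.1%, whereas SKP2, H3K4me3 and HCT116 RepID KO origins rise mainly in the highest group.

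Most islands held 1 CDT2 peak and 1 origin. There were 9864 (88.5%) with 1 CDT2 peak, 1089 with 2, 153 with 3, 28 with 4, 8 with 5 and 3 with 7. With 1 CDT2 peak H3K9me3 was found in 59.8%, with 2 in 77.7% and with 3 in 81.0%, and the median width was 2400, 4600 and 6200 bp. A single origin was met by 9793 islands (87.9%). The centre of the strongest CDT2 peak lay a median of 506 bp from the centre of the island, and 6344 islands (56.9%) had it in their central part, within 0.5 of the distance from centre to edge. CDT2 peaks covered a median of 26.9% of the island and origins 94.9%. The origin reached the CDT2 peak itself in 10793 islands (96.8%), and 5321 islands (47.7%) lay wholly inside origins, against 52.9% of the origin islands without CDT2.

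Most islands that met another list met it on a CDT2 peak. Of the islands with H3K9me3, 6377 of 6900 (92.4%) had it on a CDT2 peak and not only elsewhere in the island. The same held for 85.1% of those with H3K4me3, 84.4% of those with HCT116 WT SKP2, 80.6% with HCT116 RepID KO SKP2 and 93.9% with an HCT116 RepID KO origin. For the origins this share says little about place, because they covered a median of 100% of each CDT2 peak they met. No share expected from the widths of the regions was computed. H3K9me3 covered 46.7% of the 12674 CDT2 peak centres, 4.51% of the positions 1 kb away and 1.98% at 4 to 5 kb. HCT116 WT SKP2 covered 8.58, 0.682 and 0.384%, and HCT116 RepID KO SKP2 8.32, 0.840 and 0.475%. H3K4me3 fell less, from 14.1 to 5.53 and 4.46%. Origins of U2OS covered 94.6% of the centres and 41.1% at 4 to 5 kb, and those of HCT116 RepID KO 64.0 and 37.3%. Narrow coverage centred on the CDT2 peak was thus seen in ChIP lists of different antibodies and of 2 cell lines. It was not particular to these islands. At CDT2 peaks in CUL4A islands outside origins, H3K9me3 covered 41.0% of the centres and 1.45% at 4 to 5 kb, and HCT116 WT SKP2 9.78 and 0.438%. At CDT2 peaks without CUL4A the values were 26.1 and 1.14% for H3K9me3, and 5.49 and 0.290% for HCT116 WT SKP2.

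**Figure D4:**
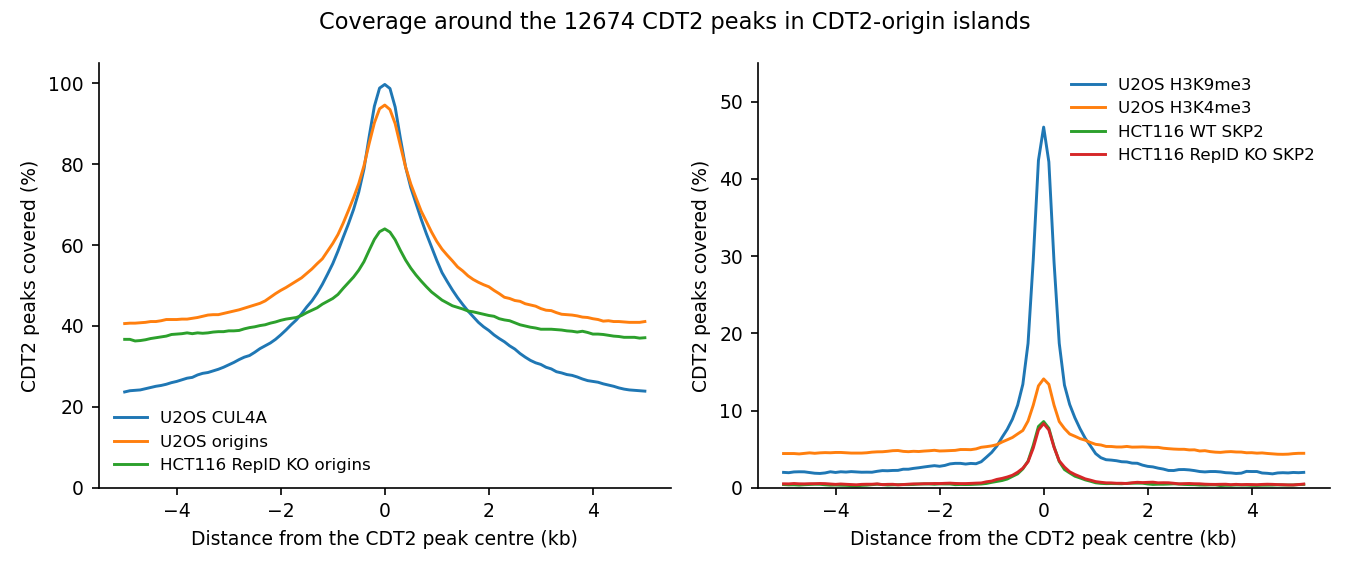
Percentage of the 12674 CDT2 peaks in CDT2-origin islands (y axis) covered by each list in steps of 100 bp from 5 kb before to 5 kb after the CDT2 peak centre (x axis, kb). CUL4A and the origins (left) decline over several kb, whereas H3K9me3 and SKP2 (right) stand within about 1 kb of the centre, H3K9me3 falling from 46.7% to 4.51% at 1 kb.

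CDT2 peaks in these islands had higher scores than CDT2 peaks without CUL4A. The CDT2, CUL4A and origin lists made the selection, so these scores and widths describe the set and are no independent result. They were 45.7% of the 27704 CDT2 peaks on chromosomes 1 to 22, with a median score of 30.6 and a median width of 617 bp. CDT2 peaks in CUL4A islands outside origins had a median score of 28.6, and those without CUL4A 24.4. The highest 10% began at 77.9 in CDT2-origin islands, 80 in CUL4A islands outside origins and 43.3 without CUL4A, so only the peaks without CUL4A were lower in both values. A score of at least 50 was reached by 21.1, 18.3 and 7.16% in that order. H3K9me3 lay on 54.4% of the CDT2 peaks in CDT2-origin islands (53.5 to 55.3%), on 46.9% of those in CUL4A islands outside origins (45.3 to 48.6%) and on 30.2% of those without CUL4A (29.4 to 31.1%). H3K4me3 lay on 15.7, 6.86 and 3.73%, and HCT116 WT SKP2 on 11.1, 11.9 and 6.56%.

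Seen from the origins, 12225 of the 126050 U2OS origins on these chromosomes (9.70%) held at least part of a CDT2-origin island. They were a median of 3200 bp wide, as were the 25364 origins with CUL4A but no such island, whereas the 88461 origins without CUL4A had a median of 2200 bp. HCT116 RepID KO cells had an origin at 72.1, 77.1 and 28.0% of the 3 sets, against 42.2% of all U2OS origins. The part of origin width in these shares was not tested. The share of origins with a CDT2-origin island was between 7.14 and 7.95% for origins of up to 4000 bp, 13.2% for those of 4000 to 8000 bp, 23.6% up to 16000 bp and 44.4% above. A wide origin has more room to meet islands of any kind, and the share with any CUL4A island was not computed by origin width. A single CDT2-origin island was held by 11772 origins, 2 by 412, 3 by 32 and 4 by 8. The origin with the most, 5, was the 163400 bp one at chr7:1011801-1175200.

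On the 5 lists together, 1030 CDT2-origin islands (9.24%) met none, 3585 (32.2%) met 1, 3928 (35.2%) met 2, 1908 (17.1%) met 3, 598 (5.37%) met 4 and 96 (0.861%) met all 5. Their median width rose from 1400 bp with none to 7200 bp with all 5. The most frequent combination was H3K9me3 with an HCT116 RepID KO origin and nothing else (2500 islands, 22.4%), followed by the HCT116 RepID KO origin alone (1770, 15.9%) and H3K9me3 alone (1607, 14.4%). These are also the lists with the highest shares taken singly. Combinations were not counted for the other CUL4A islands, so they describe this set and do not set it apart.

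The islands were spread unevenly over the chromosomes. Chromosome 19 held 10.6 per Mb, chromosome 17 held 9.68 and chromosome 20 held 9.05, against 0.747 on chromosome 13. All CUL4A islands were spread in a like way, with 51.1, 40, 33.9 and 6.90 per Mb on the same chromosomes, and the share of CDT2-origin islands among them on chromosome 19, 20.7%, was close to the 20% over all chromosomes. As a share of the CUL4A islands of a chromosome they ranged from 10.8% on chromosome 13 (86 of 794) to 27.3% on chromosome 5 (630 of 2304). H3K9me3 varied little, from 55.9% of the CDT2-origin islands on chromosome 5 to 66.7% on chromosome 16, and was higher than in origin islands without CDT2 (20.7 to 34.9%) on 22 of 22 chromosomes. H3K4me3 varied more, from 12.1% on chromosome 5 to 39.9% on chromosome 19, and was higher than in origin islands without CDT2 on 8 of 22 chromosomes.

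**Figure D5:**
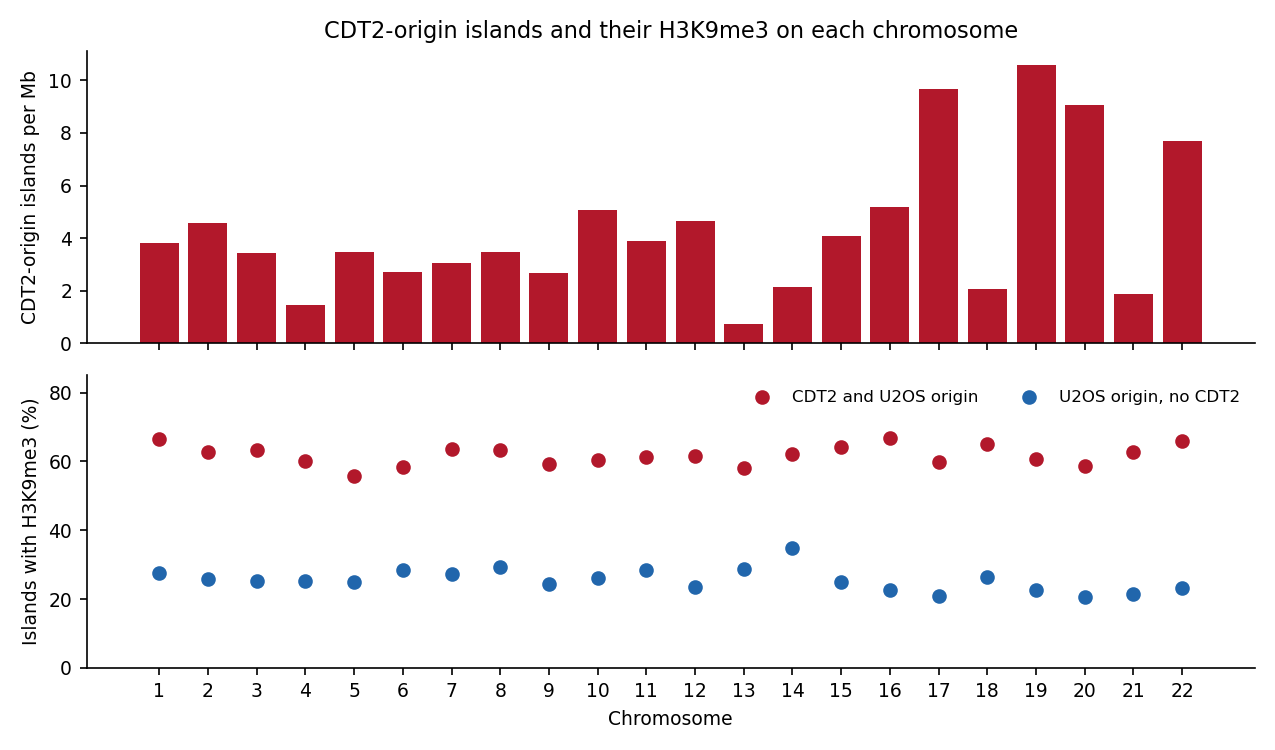
CDT2-origin islands per Mb on each chromosome (upper panel, bars from 0) and the percentage of islands with H3K9me3 (lower panel), red for CDT2-origin islands and blue for origin islands without CDT2. The density ranges from 0.747 to 10.6 per Mb, while every red point (55.9 to 66.7%) lies above every blue point (20.7 to 34.9%).

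Neighbouring CDT2-origin islands were a median of 68600 bp apart, farther than the 19600 bp of the more numerous origin islands without CDT2. When islands up to 50 kb apart were joined, 4220 (37.9%) stood alone and 2343 (21.0%) fell into 341 runs of at least 5. The longest run held 24 islands within chr12:6663401-7176200, of which 18 had H3K9me3, 15 H3K4me3 and 20 an HCT116 RepID KO origin, and 19 other CUL4A islands lay in between. The next held 22 within chr19:51127801-51591000, of which 17 had H3K9me3, 9 H3K4me3, 8 HCT116 WT SKP2, 11 HCT116 RepID KO SKP2 and 21 an HCT116 RepID KO origin, with 21 other CUL4A islands. Runs were not alike in H3K9me3. Of the 18 islands within chr20:30028001-30328200, 4 had it, 7 had H3K4me3 and 10 an HCT116 RepID KO origin.

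Several islands show the range within the set. The island with the highest CUL4A score, 6696, spanned 39800 bp at chr19:42406001-42445800, held 7 CDT2 peaks and 3 origins, and met all 5 lists, with 7 H3K9me3, 2 H3K4me3, 3 HCT116 WT SKP2 and 1 HCT116 RepID KO SKP2 peaks. The next, chr7:2133201-2174000 with a score of 6033, lay wholly within 1 origin and had 3 H3K9me3 peaks and no H3K4me3. The third, chr7:4746001-4760800 with a score of 5992, had neither mark, but 1 SKP2 peak in each HCT116 line. Another of the highest, chr2:133018601-133035200 with a score of 5590, showed the opposite pattern to the second, with 4 H3K4me3 peaks and no H3K9me3. It also held 3 HCT116 WT SKP2 and 3 HCT116 RepID KO SKP2 peaks. No region was removed here for repeats or for high background, so the highest scores may include such regions.

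The highest CDT2 score, 3100, belonged to chr6:168634401-168638800, an island of 4400 bp in which 1 CDT2 peak covered 4349 bp, with neither histone mark and 1 HCT116 WT SKP2 peak. The second, 2007, was at chr10:133183601-133186200, with 1 H3K9me3 and 1 HCT116 WT SKP2 peak. The island with the highest CUL4A score per kb among those of at least 1 kb was chr2:240080401-240081600, with 1511 per kb. It met H3K9me3, both SKP2 lists and an HCT116 RepID KO origin within 1200 bp. Strong signal in every ChIP list was not general, however. The strongest of the islands that met none of the 5 lists, chr7:26284201-26290200, had a CUL4A score of 559 and 2 CDT2 peaks, and the next, chr3:197070201-197073200, had a score of 384 and 1 CDT2 peak of 20.9.

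Few islands sat at the edge of the selection by overlap, since 24 (0.215%) shared less than 200 bp with CDT2, but more lay near it by distance or by score. The closest inside was chr5:148623001-148625000, which shared 47 bp with a CDT2 peak, followed by chr4:190987001-190989400 with 84 bp. The closest outside was chr5:33836601-33838600, on an origin and 60 bp from a CDT2 peak, followed by chr2:109065601-109066200 at 219 bp. Of the origin islands without CDT2, 420 had a CDT2 peak within 1 kb and 1542 within 2 kb, and of the islands with CDT2 outside origins 701 had an origin within 2 kb. If islands with gaps no longer than 2 kb were let in, the set would hold 13735 islands. The CDT2 list begins at a score of 20, and 2229 CDT2-origin islands had a highest CDT2 score of up to 23.8.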

How the data were processed

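The authors called all regions from their reads, and no reads were used here. Positions are in hg19 according to the submitters' processing notes, which name MACS and SICER. CUL4A islands and origins were called by SICER with windows of 200 bp, gaps of 600 bp and false discovery rates of 1e-05 and 0.01, and carry a whole-number score of the authors that is not stated to be a count of reads. The deposited CDT2 and SKP2 lists carry a score of the authors per peak. Further SKP2 columns are unexplained and were not used. The lists deposited for both histone marks are laid out like MACS2 broad peaks, although the methods name SICER, and give the fold over control as a ratio and significance as −log10 p and −log10 q. Peaks were called against controls with 1 sample per list, so depth is unknown and scores were never compared between lists. The input titled U2OS FLAG-RepID FL carries the cell line value HCT116, and no list is tied to it.

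Overlap means at least 1 shared bp on chromosomes 1 to 22. Shares have Wilson 95% intervals and differences of shares intervals combined from these by Newcombe's method, without tests. Counting of overlaps was tested on simulated data: 0 of 10000 answers differed from a direct count and a planted 30% was recovered as 30.0%. Named islands are the 6 leading ones of each of 8 orderings, of which a part is printed, with chromosome 8 left out. Islands were chosen, and lists and comparisons set, with earlier results of these data known. Alternatives were a stricter or looser overlap, stronger CDT2 or histone peaks, fixed windows, islands of over 1 to 4 kb, and islands without the highest scores. Splits of mark pairs by width were added after the values had been seen. Gene and sequence descriptions, planned for a reference of the same build, were not made. Python 3.11.15, NumPy 2.4.6, pandas 2.3.3 and matplotlib 3.10.9 were used.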

Additional observations from a re-analysis of the deposited data

How the results depend on the processing

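The differences in H3K9me3 and in both SKP2 lists between CDT2-origin islands and origin islands without CDT2 kept their direction under all 6 alternatives, and with at least 200 bp shared no value left its interval. With only CDT2 scores of at least 50, 2566 islands remained, with shares of 77.5% for H3K9me3, 28.5% for H3K4me3, 28.8 and 25.2% for HCT116 WT and RepID KO SKP2 and 78.3% for HCT116 RepID KO origins, and the differences became 44.5, 9.52, 21.7, 17.0 and 3.66 points in the same order. The last was −7.18 points with all CDT2 peaks and so changed sign, and the cause was not tested. With 1 kb around each island centre, the shares were 53.4, 14.1, 9.69, 9.97 and 59.1%, and 4 differences moved, to 37.6 points for H3K9me3, 6.30 and 6.0 points for SKP2 and −15.3 points for the origins. With islands of over 1 and up to 4 kb, 5774 in number, the shares were 60, 16.9, 12.2, 12.5 and 67.2%, and the differences −1.91 points for H3K4me3, 7.10 and 6.39 for SKP2 and −9.33 for the origins. With gaps of up to 2 kb, the shares were 63.5, 22.1, 15.8, 15.8 and 76.1%, and the differences 33.7 points for H3K9me3 and −4.55 for the origins. Without the 1% of islands with the highest score, SKP2 was found in 12.9 and 13.5%, with a difference of 7.13 points for HCT116 WT. With a −log10 q of at least 2, H3K9me3 was found in 53.1% and H3K4me3 in 18.1%. The H3K4me3 difference of −0.514 points stayed below 0 under the other 5 alternatives that give it. Its intervals left out 0 in 4 of these, with −0.936 points for gaps of up to 2 kb, −1.18 around centres and −0.944 without the highest scores. Depth is unknown, and with 1 sample per list no value covers the spread between samples.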

Other observations

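On chromosome X, which the selection left out, 155 of 931 CUL4A islands (16.6%) had CDT2 and lay on a U2OS origin. H3K9me3 was found in 62.6% of them (54.7 to 69.8%), HCT116 WT SKP2 in 13.5% (9.04 to 19.8%), HCT116 RepID KO SKP2 in 17.4% (12.3 to 24.2%) and an HCT116 RepID KO origin in 70.3% (62.7 to 77.0%). H3K4me3 was found in 31.6% (24.8 to 39.3%), where chromosomes 1 to 22 ranged from 12.1 to 39.9%. Shares for the other CUL4A islands of chromosome X were not computed. Whether any list was in excess there therefore remains unknown.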
